A study of Mus musculus with 23 samples.

Results

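The COPII coat genes are the 10 mouse genes whose products wrap transport vesicles at the endoplasmic reticulum (ER): Sar1a, Sar1b, Sec23a, Sec23b, Sec24a, Sec24b, Sec24c, Sec24d, Sec13, and Sec31a. They were picked by gene symbol and not by a cutoff on a measured value, but with earlier results of these data known. The study itself had noted gene-level deficits of COPII vesicle secretion among genes lower in WT mice with diabetes. Counts of lower coat genes below are therefore not independent of those results. All 10 were among the 67228 entries of the count table and among the 14364 genes tested. RNA-Seq had been done on marrow-depleted femur and tibia of 23 female mice, with 1 library per mouse, at 11 weeks of age and on a strain labelled C57BL6/N. WT Control held 5 mice, and 6 mice each were in WT T1D, KO Control, and KO T1D, where KO stands for mice labelled as global Sarm1 knockouts, which lack the NADase SARM1 in every tissue. Mice with type 1 diabetes (T1D) had received streptozotocin, a drug toxic to the insulin-producing β cells, at 100 mg/kg per injection, and had been diabetic for 3 weeks, whereas Control mice had received saline. The study both bred WT littermates of KO mice and bought WT mice, and the source of each WT mouse sequenced is not given.

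COPII vesicles carry newly made secreted and membrane proteins from the ER toward the Golgi. Assembly begins when the small GTPase SAR1 is loaded with GTP at the ER membrane, goes on with the inner layer of SEC23 and SEC24, where SEC24 binds cargo, and ends with the outer cage of SEC13 and SEC31. Osteoblasts, the cells that build bone, rely on this route because they export large amounts of type I procollagen, and in humans mutations of SEC23A cause a craniofacial bone disorder and mutations of SEC24D cause a brittle bone disorder.

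The hexamer TGACGT, the core of sites bound by bZIP factors such as CREB3L1 and XBP1, is shown in the promoters of these genes because Creb3l1 is 1 of the genes that tracked a coat gene most closely below. It was chosen after the sequences had been viewed. On either strand, it was present in the RefSeq promoter window (GRCm38.p6, 250 bases before to 50 bases after a transcript start) of 6 of the 10 genes, Sec23a, Sec23b, Sec24a, Sec24c, Sec24d, and Sar1a, whereas 8.37% of all 27025 genes with a window held it. That share was not limited to the 14364 genes tested or matched for base composition, so an enrichment cannot be read from it. Sec31a, the coat gene that Creb3l1 tracked, was not among the 6. Whether CREB3L1 acts on any coat gene was not tested. The longer TGACGTG, which contains it, was in the windows of 2 coat genes, Sec23a and Sec24d, and of 2.22% of all genes. No coat gene window held the ER stress response elements ERSE and ERSE-II or the full cAMP response element, which were in the windows of 0.137%, 0.0444%, and 2.03% of all genes. The stretches below are printed 5′ to 3′ on the strand of the gene, with the hexamer or its reverse complement in capitals.
Sec24d, chr3:123267456-123267485, plus strand: cgcgcccgggcgccTGACGTggcactagca
Sec23a, chr12:59011994-59012022, minus strand: ctcctccccttTGACGTggcagaggcggc
Sec23b, chr2:144556205-144556234, plus strand: catggcgccgcgaaaTGACGTttcggagcg
Sar1a, chr10:61680174-61680203, plus strand: caccccgagcgtACGTCActccttaggccc
Sec24a, chr11:51757045-51757074, minus strand: ctaACGTCAaaattaatcttaatcctccag
Sec24a, chr11:51757010-51757039, minus strand: aagaagagcttcctccttaACGTCAtcaga
Counted from the RefSeq transcript start, the matches begin at -26 in Sec24d, 7 in Sec23a, -9 in Sec23b, -99 in Sar1a, and -237 and -186 in Sec24a. Sar1a has a further match at 27, and that of Sec24c is at 30. The start used for Sec24d lies 2695 bases, and that for Sec24a 327 bases, inside the outermost annotated start of the gene. A match of letters is a description and not a binding site. By the GRCm38.p6 annotation, the 10 genes lie at chr3:123264801-123365641 (Sec24d), chr3:129982759-130061599 (Sec24b), chr11:51692263-51757161 (Sec24a), chr11:51763663-51791953 (Sar1b), chr14:20674285-20694852 (Sec24c), chr12:58958384-59012017 (Sec23a), chr2:144556229-144590753 (Sec23b), chr10:61680285-61693297 (Sar1a), chr6:113728052-113740681 (Sec13), and chr5:100361649-100416273 (Sec31a). Sec24a and Sar1b lie next to each other in coordinates.

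Total counts per mouse ranged from 16938101 to 20135592, and levels are given as CPM, the count of a gene scaled to library size, after TMM normalization. Osteoblast markers, a list of 10 genes such as Col1a1 and Bglap, had a summed level of 60720.5 to 118113 CPM in WT Control, so that defining genes of bone were present. In WT T1D, mice 4 and 5 stood apart, with summed osteoblast marker levels of 6159 and 4721 CPM, whereas the other 4 mice had 62421 to 85384 CPM. The erythroid markers were highest in the same pair of mice, with summed levels of 239322 and 234491 CPM, compared with 127517 to 180695 CPM in the other WT T1D mice and 98709 to 144480 CPM in WT Control. In bulk RNA, fewer cells of a type and less RNA per cell cannot be told apart, and the part of cell composition in the values below was not tested. Values of the coat genes with diabetes in WT mice are therefore also given without mice 4 and 5. Sarm1 RNA had 0.799 ± 0.503 CPM in KO Control and 1.17 ± 0.403 CPM in WT Control (SD, n = 6 and 5), with overlapping ranges, and 1.19 ± 0.259 CPM in KO T1D and 0.687 ± 0.293 CPM in WT T1D (SD, n = 6 each). The counts therefore do not separate the genotype labels in 1 direction, and gene-level counts do not show whether the transcript was intact. Sarm1 counts were low, at 15 to 32 per mouse in WT Control and 5 to 29 in KO Control. By qPCR, the study reported less Sarm1 in KO bone than in WT bone.

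Levels of the coat genes were first compared in healthy WT bone, per transcript length, with the TPM values deposited by the authors. Sec31a, the large subunit of the outer cage, was the most abundant at 129 ± 21.7 TPM (SD, n = 5). Its partner Sec13, which also sits in the nuclear pore, followed at 67.3 ± 6.47 TPM. The GTPases Sar1a (53.1 ± 10.5 TPM) and Sar1b (46.3 ± 11.6 TPM) and the cargo adaptors Sec24d (46.0 ± 10.3 TPM) and Sec24c (40.3 ± 2.49 TPM) came next, and their ranges over mice overlapped from each gene to its neighbour in this order, as did those of Sec13 and Sar1a. Sec23b, the inner coat paralog whose human counterpart is mutated in an inherited anemia, stood at 31.9 ± 1.60 TPM. Its paralog Sec23a was lower in every WT Control mouse, at 20.8 ± 4.15 TPM. Sec24b had 19.0 ± 1.03 TPM, a level that overlapped with that of Sec23a. The lowest was Sec24a at 5.30 ± 0.775 TPM. Ranges over the 5 mice did not overlap between Sec31a and Sec13, Sec24c and Sec23b, Sec23b and Sec23a, or Sec24b and Sec24a.

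To ask whether diabetes altered the coat genes in WT bone, WT T1D was compared with WT Control. Levels of 9 of the 10 genes were below WT Control, with a median log2 fold change of -0.24, whereas 51.9% of all genes tested were below 0 and their median was -0.011. None of the 10 passed an adjusted p of 0.05, which 2.33% of all genes did in either direction. This share depends on single mice, as the 334 genes behind it became 0 without WT Control mouse 2 or 5, 3 without WT Control mouse 3, and 1262 without WT T1D mouse 6, while 0 coat genes were called when any single mouse was left out. At an unadjusted p under 0.05, 6 of the 10 were lower (Sec24a, Sec24b, Sec24d, Sar1a, Sec13, and Sec31a) and 0 were higher, compared with 11.2% and 11% of all genes. DESeq2 likewise called 0 of the 10 after adjustment and 6 before it, compared with 6.98% and 22.3% of all genes. Without WT T1D mice 4 and 5, the median was -0.10 and 9 of 10 were still below 0, while the median of all genes was -0.0092. In that fit, 0 coat genes had an unadjusted p under 0.05, compared with 11% of all genes.

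**Figure D1:**
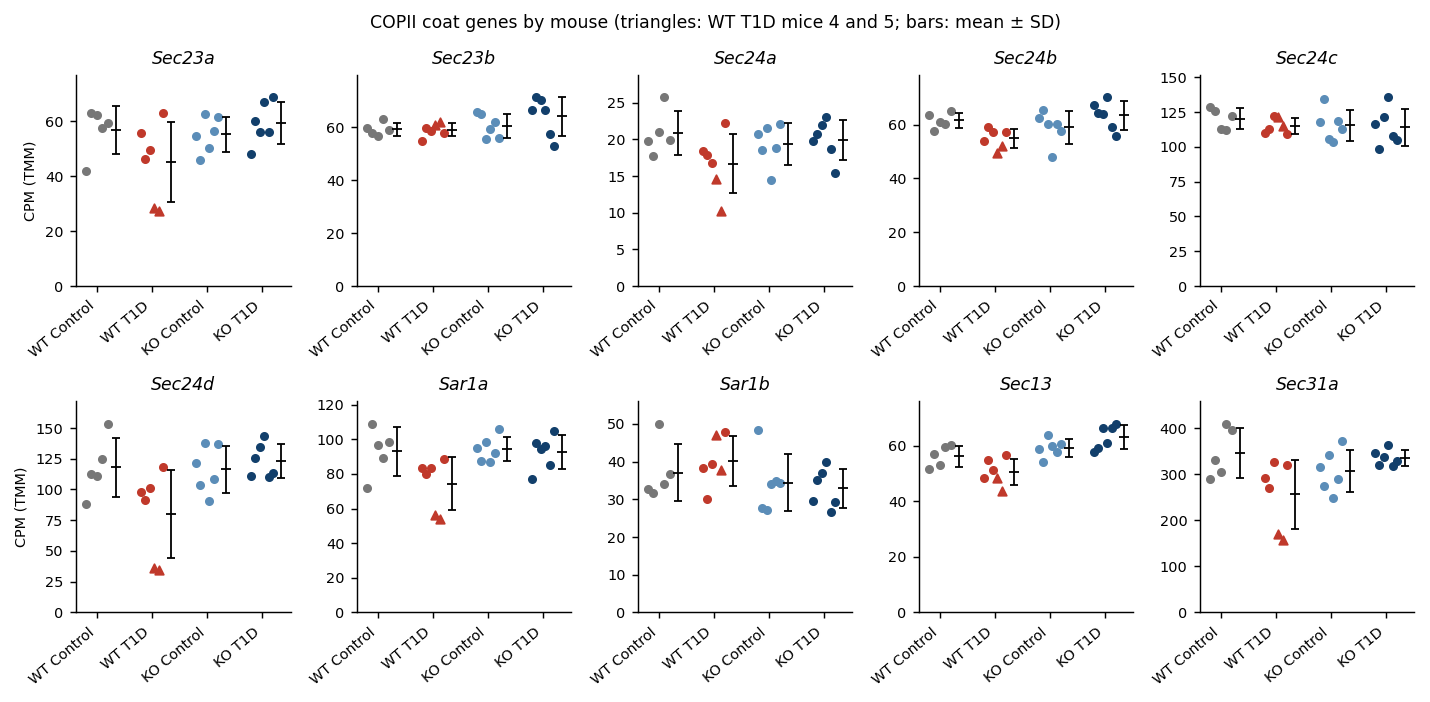
TMM-normalized CPM of each COPII coat gene in each of the 23 mice (y axis, from 0), by group (x axis), with triangles for WT T1D mice 4 and 5 and bars for the mean ± SD of each group. The triangles sit at the bottom of the WT T1D group for Sec23a, Sec24a, Sec24b, Sec24d, Sar1a, Sec13, and Sec31a, and not for Sec23b, Sec24c, or Sar1b.

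Sec24d, a cargo adaptor needed for export of collagen, had the difference furthest from 0. Its levels in the 5 WT Control mice were 88.4, 113, 111, 124, and 154 CPM, whereas the 6 WT T1D mice had a lowest level of 34.2, a median of 94.6, and a highest level of 118 CPM. The low levels belonged to mice 4 and 5, at 36.2 and 34.2 CPM, and the other 4 mice, at 91.5 to 118 CPM, lay within the range of WT Control. The log2 fold change was -0.56 (SE 0.24, adjusted p = 0.164) with all mice and -0.21 without mice 4 and 5 (adjusted p = 0.594). Sec24a, a further cargo adaptor, was at 19.8, 17.7, 21.0, 25.8, and 19.9 CPM in WT Control. Its WT T1D levels ran from 10.2 to 22.2 CPM with a median of 17.3 CPM, and the log2 fold change was -0.32 (SE 0.15, adjusted p = 0.211). Of the 6 mice, 3 lay below every WT Control mouse, mice 4 and 5 among them, and the share of all genes with this pattern was not counted. Leaving out mice 4 and 5 brought the Sec24a value to -0.15.

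Sec24b, an adaptor known from export of a planar cell polarity protein, had a smaller and more even difference. WT Control mice had 63.7, 57.8, 61.1, 60.3, and 65.1 CPM, and WT T1D mice had a lowest level of 49.4, a median of 55.6, and a highest level of 59.1 CPM. All 6 diabetic mice lay below the WT Control mean and 5 of 6 below every WT Control mouse, a pattern of at least 5 mice that 3.79% of all genes tested had. The log2 fold change of Sec24b was -0.17 (SE 0.074, adjusted p = 0.184), and -0.12 without mice 4 and 5. The 4th adaptor, Sec24c, had similar levels in both groups, at 112 to 129 CPM in WT Control and 109 to 122 CPM in WT T1D, with a log2 fold change of -0.063 (95% interval -0.22 to 0.097) and of -0.087 without mice 4 and 5.

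SEC23, the GTPase-activating subunit that pairs with SEC24, has a pair of paralogs, whose difference from each other was not tested. WT Control mice had 41.9, 63.0, 62.3, 57.5, and 59.2 CPM of Sec23a, and WT T1D mice had 27.3 CPM at the lowest, 48.0 at the median, and 63.1 at the highest. Mice 4 and 5 were again the lowest, at 28.5 and 27.3 CPM, while WT T1D mouse 6 was above every WT Control mouse. The log2 fold change of Sec23a was -0.33 (SE 0.17, adjusted p = 0.254), and -0.082 without mice 4 and 5. Sec23b ranged from 56.8 to 63.1 CPM in WT Control and from 54.9 to 62.1 CPM in WT T1D. Its log2 fold change was -0.0066 with a 95% interval of -0.15 to 0.14, and -0.039 without mice 4 and 5. Those mice had the highest levels of the diabetic group, at 60.7 and 62.1 CPM.

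The SAR1 paralogs lay on opposite sides of 0. Sar1a levels in WT Control were 71.6, 109, 96.7, 89.1, and 98.7 CPM, and those in WT T1D were 53.9 CPM at the lowest, 81.9 at the median, and 88.7 at the highest. Each WT T1D mouse was below the WT Control mean, mice 4 and 5 were below all WT Control mice, at 56.4 and 53.9 CPM, and the log2 fold change was -0.32 (SE 0.12, adjusted p = 0.124). Without this pair of mice, the Sar1a value was -0.15. Sar1b, the paralog needed for chylomicron export in the gut, was the only coat gene above 0, with 31.6 to 50.1 CPM in WT Control, 30.1 to 47.9 CPM in WT T1D, and a log2 fold change of 0.12 (95% interval -0.19 to 0.43), and of 0.072 without mice 4 and 5.

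Both genes of the outer cage were below WT Control. The 5 WT Control mice had 289, 331, 304, 410, and 395 CPM of Sec31a, and the WT T1D mice had 158 CPM at the lowest, 280 at the median, and 327 at the highest. Mice 4 and 5, at 170 and 158 CPM, were far below the other mice, although all 6 diabetic mice lay below the WT Control mean. Sec31a had the lowest adjusted p of the coat genes in WT (log2 fold change -0.43, SE 0.16, adjusted p = 0.110), and its value without mice 4 and 5 was -0.20. Sec13 was at 51.6, 56.9, 52.9, 59.4, and 60.2 CPM in WT Control and had 43.7 CPM at the lowest, 49.8 at the median, and 56.6 at the highest in WT T1D. Of the 6 diabetic mice, 4 were below every WT Control mouse, as in 9.29% of all genes, and the log2 fold change of Sec13 was -0.15 (SE 0.069, adjusted p = 0.194). Its value without mice 4 and 5 was -0.092.

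Mice 4 and 5 were the 2 lowest of the 6 WT T1D mice for 7 of the 10 coat genes, compared with 24.5% of all genes. They were the 2 lowest of all 23 mice for 5 coat genes (Sec23a, Sec24d, Sar1a, Sec13, and Sec31a), compared with 15.2% of all genes. Mouse identifiers fall in a pair of series, and the labels do not say what they mark. WT Control mouse 1 and WT T1D mice 1 to 3 carry A17 numbers, and all other mice carry A36 to A39 numbers. Among the A17 mice, all 3 diabetic mice were above the single control for Sec23a, Sec24d, and Sar1a and below it for Sec23b, Sec24a, Sec24b, and Sec24c, patterns that 26.4% and 26.6% of all genes had. In a fit of the A36 to A39 mice only, 3 coat genes were lower after adjustment, and 15.5% of all genes were called in either direction. These were Sec24d (log2 fold change -0.99, adjusted p = 0.0323), Sar1a (-0.56, adjusted p = 0.0172), and Sec31a (-0.72, adjusted p = 0.0194), and 2 of the 3 WT T1D mice in that fit were mice 4 and 5. With all mice and the identifier series as a term in the model, a fit chosen after the data were seen, the median was -0.27 and 0 coat genes were called (5.58% of all genes). When the erythroid marker score entered the model, the median of the coat genes in WT was 0.043 and Sec23a, Sec24a, Sec24d, Sar1a, and Sec31a were on the other side of 0. That fit called 0 of all genes, and 3.84% had an unadjusted p under 0.05. The score ran from 10.17 to 10.92 in WT T1D and from 9.65 to 10.21 in WT Control. In WT, the score can therefore hardly be told apart from diabetes. On the deposited TPM, as log2 (TPM + 1) in limma, 9 of 10 coat genes were lower, all but Sar1b, where 36% of all genes were called and the median of all genes was itself -0.24.

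**Figure D2:**
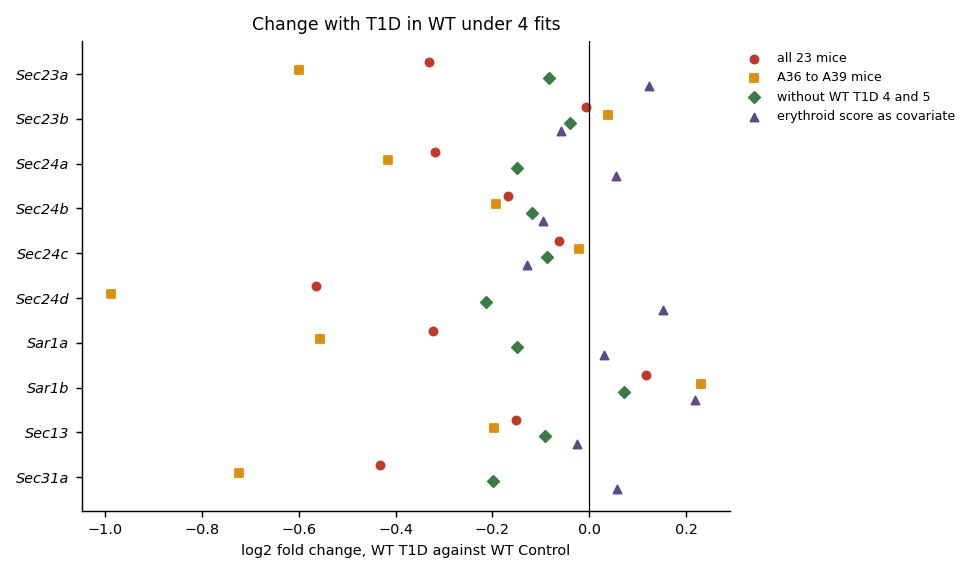
Log2 fold change of each COPII coat gene between WT T1D and WT Control (x axis) in 4 edgeR fits: all 23 mice, the A36 to A39 mice, all mice but WT T1D mice 4 and 5, and all mice with an erythroid marker covariate. Sec24d runs from -0.99 in the A36 to A39 mice to 0.15 with the covariate, whereas Sec24b, Sec24c, and Sec13 stay below 0 in all 4 fits.

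In mice labelled as knockouts, KO T1D was compared with KO Control. The 10 genes had a median log2 fold change of 0.081, from -0.061 (Sar1b) to 0.13 (Sec31a), and 7 of 10 were above 0, compared with 49.4% of all genes. Neither the adjusted test (0% of all genes called) nor an unadjusted p under 0.05 (3.15% of all genes) picked any of them in edgeR, and DESeq2 called 0 after adjustment as well. Sec24d had 90.6 CPM at the lowest, 115 at the median, and 138 at the highest in KO Control, and 110, 120, and 143 CPM in KO T1D. No mouse of either KO group came near the levels of WT T1D mice 4 and 5, and the 95% interval of the Sec24d change was -0.39 to 0.55. Sec31a had 249, 302, and 373 CPM in KO Control and 318, 332, and 363 CPM in KO T1D at the lowest, median, and highest, so that all 6 diabetic mice were above the KO Control mean. Its 95% interval was -0.19 to 0.44. For Sec13, the 3 levels were 54.2, 59.2, and 63.9 CPM in KO Control and 57.6, 63.7, and 68.0 CPM in KO T1D, and the groups overlapped.

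Sar1a, Sec23a, and Sec24b also overlapped between the KO groups. Sar1a ran from 87.2 to 106 CPM in KO Control and from 77.2 to 105 CPM in KO T1D. Levels of Sec23a were 46.1 to 62.5 CPM and 48.1 to 68.8 CPM, and those of Sec24b were 47.9 to 65.5 CPM and 55.8 to 70.2 CPM. The other SAR1 paralog, Sar1b, was at 27.2 to 48.4 CPM and 26.8 to 39.96 CPM. Sec23b had 55.3 to 65.8 CPM in KO Control, whereas KO T1D mice ran from 52.8 to 71.3 CPM, with 4 of 6 above and 1 below every KO Control mouse. The share of all genes with that pattern was not counted. Sec24a (14.4 to 22.2 and 15.4 to 23.1 CPM) and Sec24c (104 to 134 and 98.6 to 136 CPM) had nearly the same range in both groups. Summed osteoblast marker levels were 52953 to 106956 CPM in KO Control and 70355 to 106001 CPM in KO T1D.

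**Figure D3:**
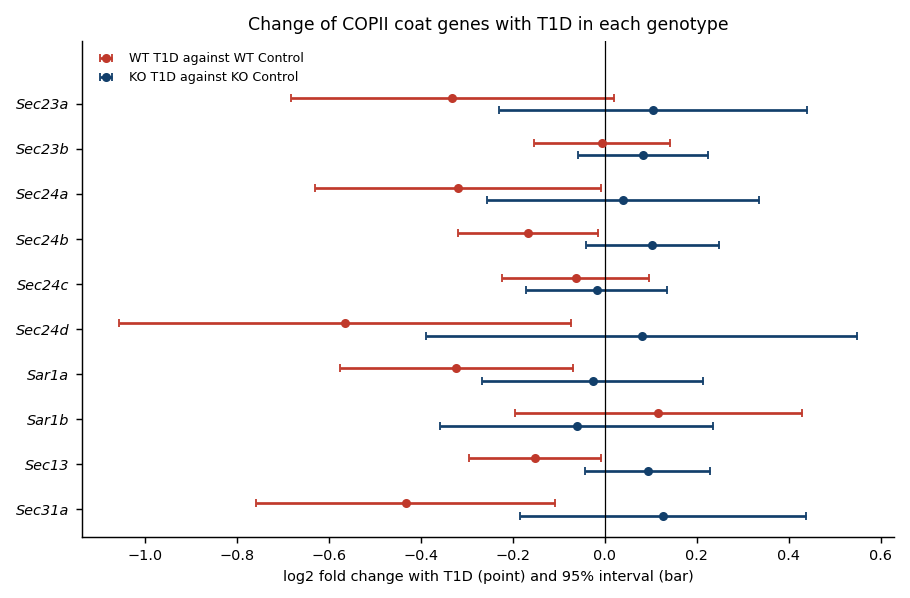
Log2 fold change with T1D (points) and its 95% interval from edgeR (bars) for each COPII coat gene, in WT and in mice labelled Sarm1-KO. The WT points of Sec24d, Sec31a, Sec23a, Sar1a, and Sec24a lie between -0.56 and -0.32, and every KO interval spans 0.

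Because an effect seen in only 1 genotype is not in itself a difference between genotypes, the change in KO minus the change in WT was tested as an interaction. This difference was above 0 for 9 of the 10 genes (51% of all genes), with a median of 0.28. No coat gene and 0% of all genes passed the adjusted threshold in edgeR. At an unadjusted p under 0.05, 3 coat genes were above 0, compared with 4.81% of all genes. They were Sec24b (0.27, SE 0.10), Sec13 (0.25, SE 0.095), and Sec31a (0.56, SE 0.22), each with an adjusted p of 0.479. Sec24d had the largest interaction at 0.65, with a 95% interval of -0.035 to 1.33. Without WT T1D mice 4 and 5, the median was 0.18 and 1 coat gene had an unadjusted p under 0.05, compared with 4.66% of all genes. DESeq2's likelihood ratio test called 0 coat genes at an adjusted p under 0.05 and 0 at an adjusted p under 0.3, which 0.488% of all genes passed. The study's methods give a cutoff of 0.3 for this test but do not say that p was adjusted. Unadjusted, p of this test ran from 0.00986 (Sec31a) to 0.738 (Sec24c), and 4 coat genes were under 0.05, compared with 10.4% of all genes. The share of all genes with an unadjusted p under 0.3 was not counted.

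**Figure D4:**
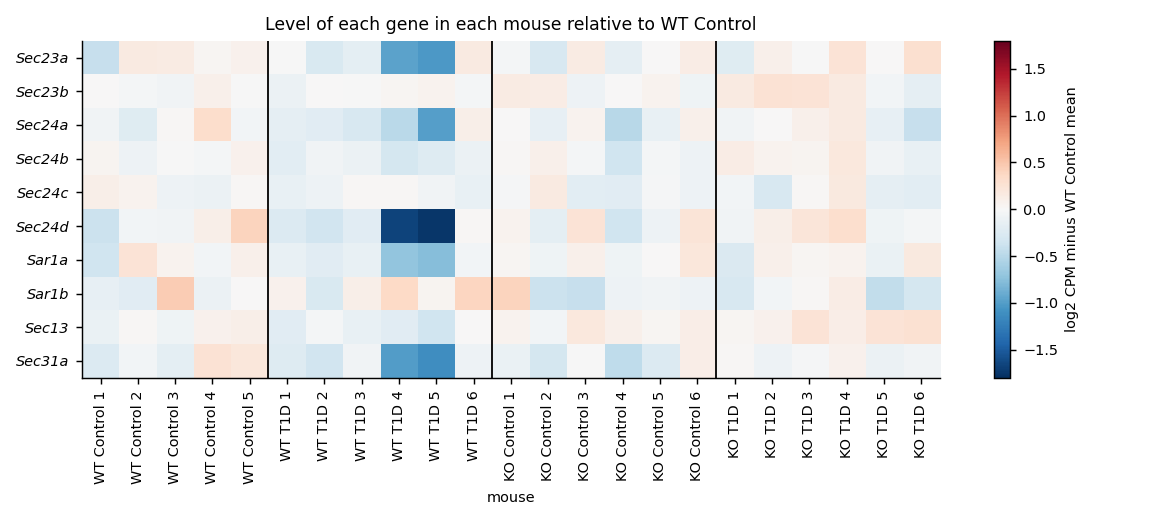
Level of each COPII coat gene (rows) in each mouse (columns), as log2 CPM minus the WT Control mean of that gene, from blue for lower to red for higher. The deepest blue cells are Sec24d in WT T1D mice 4 and 5, followed by Sec31a and Sec23a in both and Sec24a in mouse 5, and the KO T1D columns show no comparable block.

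Genotypes were then compared within each disease state, with the same 4 groups of mice, so that these comparisons share mice with those above. In nondiabetic mice, KO and WT differed little, with a median log2 fold change of -0.050, a range from -0.17 (Sec31a) to 0.073 (Sec13), and 0 of 10 coat genes called by edgeR or DESeq2 or below an unadjusted p of 0.05 (0.0278% and 4.8% of all genes). In diabetic mice, the median was 0.29, 8 of 10 coat genes were above 0 (51.3% of all genes), and 0 were called, beside 0.0905% of all genes. At an unadjusted p under 0.05, 6 coat genes were higher in KO T1D than in WT T1D (Sec23a, Sec24b, Sec24d, Sar1a, Sec13, and Sec31a), compared with 8.44% of all genes. Sec13 came closest to the threshold. Its 6 WT T1D mice had 48.5, 55.0, 51.2, 48.5, 43.7, and 56.6 CPM, and its 6 KO T1D mice had 57.6, 59.1, 66.4, 61.0, 66.3, and 68.0 CPM. Every KO T1D mouse was above every WT T1D mouse, as for 0.453% of all genes in this direction.

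The log2 difference of Sec13 between diabetic KO and WT mice was 0.32 (SE 0.066, adjusted p = 0.0644 in edgeR). DESeq2 gave an adjusted p of 0.00583 for Sec13, and over the 9 alternative fits the adjusted p ran from 0.00583 to 0.563, past the threshold in 5. Leaving out WT T1D mouse 2, WT T1D mouse 6, or KO T1D mouse 1 also brought it past the threshold in edgeR. Without WT T1D mice 4 and 5, the difference was 0.25 with an adjusted p of 0.417. Sec24d (0.62, adjusted p = 0.198), Sec23a (0.40, adjusted p = 0.231), and Sec31a (0.39, adjusted p = 0.213) had larger differences in this comparison than Sec13 but overlapped between the groups. Sar1b was lower in KO T1D by point estimate (-0.28, adjusted p = 0.315).

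The balance between paralogs was described as the share of each gene in the summed TPM of its family, with no test. In WT Control, Sec24d made up 41.2% ± 5.03 of SEC24 transcripts and Sec24c 36.7% ± 3.91 (SD, n = 5), with Sec24b at 17.3% and Sec24a at 4.82%. In WT T1D mice 4 and 5, Sec24d was at 19.0% and 18.9% and Sec24c at 55.0% and 55.1%. The other 4 WT T1D mice had 37.0% to 43.1% Sec24d, as in WT Control. Both KO groups kept Sec24d near WT Control, at 42.0% ± 4.07 and 43.1% ± 2.03 (SD, n = 6 each). Sec23a made up 39.1% ± 4.27 of SEC23 transcripts in WT Control and 24.04% and 22.9% in WT T1D mice 4 and 5. The Sar1a share, 53.5% ± 5.53 of SAR1 transcripts in WT Control, was 35.5% and 39.7% in these mice. Sec31a was 65.6% ± 2.09 of the summed SEC13 and SEC31A transcripts in WT Control and 51.9% and 52.8% in the same pair. In those mice, the balance thus lay toward Sec23b, Sec24c, and Sar1b.

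**Figure D5:**
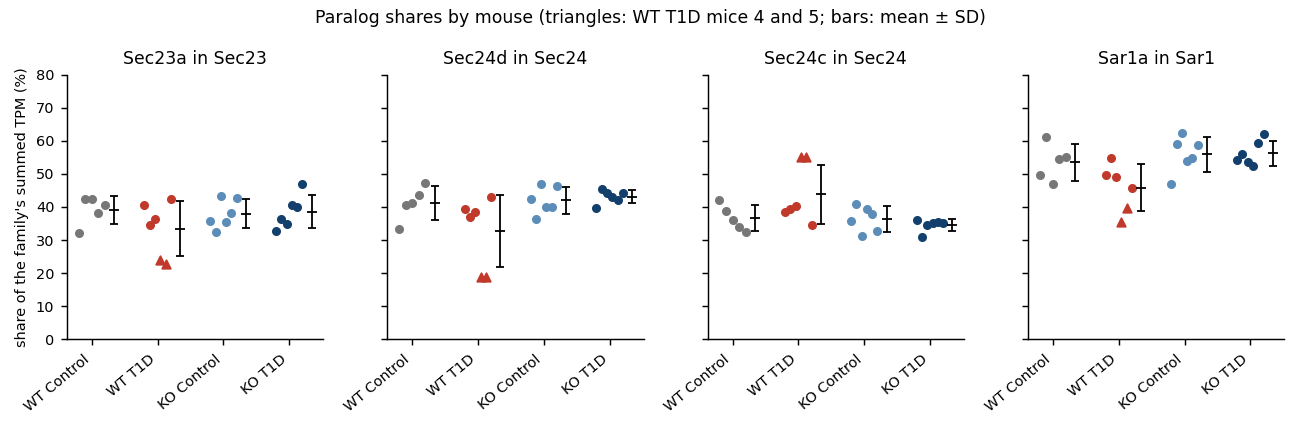
Share of Sec23a, Sec24d, Sec24c, and Sar1a in the summed TPM of its family (y axis, percent) in each mouse by group, with triangles for WT T1D mice 4 and 5 and bars for the mean ± SD. The triangles lie lowest in WT T1D for Sec23a, Sec24d, and Sar1a and highest for Sec24c.

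Across the 23 mice, Spearman correlations of log2 CPM were used to describe which coat genes moved together, and mice share a group, a series, and a tissue makeup. Sec24d went with Sec31a (rho 0.85), Sec23a with Sar1a (0.84), and Sec24d with Sar1a (0.81). Without WT T1D mice 4 and 5, these values were 0.80, 0.79, and 0.75 over 21 mice. Sec23a and Sec23b had a rho of -0.37, and Sec24c had 0.44 or less with each other member. The gene most like Sec31a was Copg1 (rho 0.92), a subunit of the COPI coat that runs the reverse route from the Golgi, followed by the T cell factor gene Tcf7 (0.91) and Creb3l1 (0.90), which encodes an ER-bound transcription factor needed for collagen production by osteoblasts. Sec24d was most like the sodium-calcium exchanger gene Slc8a3 (0.94), Kctd17 (0.93), and the amino acid transporter gene Slc36a2 (0.91). Sar1a was like Nme2 (0.95) and the fibroblast activation protein gene Fap (0.94). Sec23a was closest to Hapln4 (0.92), Ikbip (0.92), and Fam114a1 (0.89).

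Other members had other companions. Sar1b was most like the glycolytic gene Aldoa (0.89), Got1 (0.89), and Fitm1 (0.89). Sec13 followed the kinase gene Fyn (0.87), Mpnd (0.83), and Bcar1 (0.83). Sec23b was closest to Ascc1 (0.80), Plxdc1 (0.78), and Rab32 (0.76), and Sec24c to Fgd3 (0.79), the ER stress sensor gene Ern1 (0.76), and Herc2 (0.75). Sec24a paired with Nfic (0.84), Krtcap2 (0.81), and Dvl3 (0.81), and Sec24b with the endosomal gene Rbsn (0.82), Tlr11 (0.74), and Mtmr4 (0.74).

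The surrounding machinery was described with 5 gene lists. By the same adjusted threshold, 119 of all 14364 genes tested fell in WT T1D and 215 rose. Of 12 genes for COPII assembly and ER exit sites, 2 fell in WT T1D and 0 rose. These were Sec16a (log2 fold change -0.44, adjusted p = 0.0494), the scaffold of ER exit sites, and its paralog Sec16b (-0.58, adjusted p = 0.0440). The 3rd gene named from this list, Mia3, which encodes the procollagen receptor TANGO1, had -0.28 (adjusted p = 0.112), and -0.13 without mice 4 and 5. The list's median was -0.050. Sec16a averaged 106 ± 7.68 CPM in WT Control and 78.5 ± 14.02 CPM in WT T1D, and Sec16b 26.0 ± 3.76 and 17.4 ± 3.53 CPM (SD, n = 5 and 6). Of 12 COPI genes, 1 fell, the β subunit Copb1 (-0.25, adjusted p = 0.0490), and 0 rose, and the median was -0.17, or -0.081 without mice 4 and 5. Copz2 (-0.55, adjusted p = 0.286) and the GTPase Arf4 (-0.38, adjusted p = 0.178) were not called, and had -0.14 each without mice 4 and 5. Of 8 transcription factors of the secretory pathway, Creb3l2, a relative of Creb3l1 known to act on Sec23a in cartilage, fell (-0.55, adjusted p = 0.0499), and 0 rose. Creb3l1 itself had -0.74 (SE 0.35, adjusted p = 0.207) and Bhlha15 -0.49 (adjusted p = 0.308), and without mice 4 and 5 these values were -0.29 and -0.16. At an unadjusted p under 0.05 in edgeR, 4 of the 12 COPII assembly genes, 6 of the 12 COPI genes, and 4 of the 8 factors were lower. Higher genes numbered 0, 0, and 1 in these lists. Of all genes, 11.2% were lower and 11% higher by this rule, and 6 of the 10 coat genes were lower.

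All 4 of these calls were just under the threshold in edgeR. They were lost without WT T1D mice 4 and 5, where Sec16a had -0.30, Sec16b -0.50, Copb1 -0.21, and Creb3l2 -0.33, with the erythroid covariate, and with no filter on low counts (adjusted p = 0.059, 0.0525, 0.0611, and 0.0589 in that order). DESeq2 kept them (adjusted p = 0.0143, 0.00694, 0.0163, and 0.0128 in that order), where 6.98% of all genes were called. Of the 9 alternative fits, 6 kept Sec16a, Sec16b, and Creb3l2, and 5 kept Copb1. With the identifier series as a term, the call of Copb1 was lost (adjusted p = 0.0532) and Mia3 fell (-0.35, adjusted p = 0.0451). Leaving out single mice kept the call in 7 of 23 fits for Sec16a, 10 for Sec16b, 4 for Copb1, and 5 for Creb3l2. Each call ended when any 1 of WT Control mice 2, 3, 4, or 5, WT T1D mice 2, 4, or 5, KO Control mice 1, 3, or 5, or KO T1D mice 1, 5, or 6 was left out. No gene of the 12 for ER-to-Golgi tethering and fusion passed in edgeR, with the SNARE gene Sec22b (-0.31, adjusted p = 0.0856), the tether gene Uso1 (-0.20), and Ykt6 (-0.16) the furthest from 0. At an unadjusted p under 0.05, 3 of the 12 were lower and 0 higher, compared with 11.2% and 11% of all genes. Of the 14 ER cargo receptor genes, 0 passed in edgeR, and DESeq2 called Mcfd2 (6.98% of all genes called). By the unadjusted edgeR p, 4 of the 14 were lower and 0 higher, beside the same shares of all genes. The cargo receptor gene for clotting factors, Lman1, had -0.39 (adjusted p = 0.142), its partner Mcfd2 -0.31 (adjusted p = 0.0585), and Surf4 -0.22 (adjusted p = 0.209). Without mice 4 and 5, Sec22b had -0.17, Uso1 -0.055, Ykt6 -0.093, Lman1 -0.15, Mcfd2 -0.20, and Surf4 -0.073. In KO mice and for the interaction, 0 genes of the 5 lists were called by edgeR, beside 0% of all genes.

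Among cell type markers, all 10 osteoblast genes were below 0 in WT T1D (median -0.77), and 2 of them fell, Ibsp and Runx2, which are named after their values were seen. All 14 erythroid markers tested were above 0 (median 0.62), and 7 rose. Of all 14364 genes tested, 119 fell and 215 rose. The 8 chondrocyte markers tested had a median of -1.81 and the 10 neutrophil, 9 B and plasma cell, 8 skeletal muscle, and 7 osteoclast markers 0.20, -0.031, 0.17, and 0.090, with 0 called in each of these lists. Without mice 4 and 5, the osteoblast median was -0.37 and the erythroid median 0.41, with 0 called in either list. The same omission gave medians of -1.34 for chondrocyte and 0.24 for muscle markers and turned the sign of the neutrophil (-0.016), B and plasma cell (0.25), and osteoclast (-0.49) medians. In KO mice, the osteoblast median was 0.045 and the erythroid median 0.069, and the part of these shifts in the levels of the coat genes was not tested.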

How the data were processed

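RNA-Seq values of 23 mice were grouped by library label. The authors deposited RSEM expected counts as whole numbers, without normalization, beside TPM computed by the provider. Paired-end reads of oligo dT libraries had passed SOAPnuke, HISAT, and Bowtie2 against GRCm38.p6, and these steps were not repeated. Gene-level counts merge transcripts, and reads shared by paralogs are divided by RSEM's estimate. A gene was tested if 5 or more mice had 10 or more counts.

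Counts were TMM-normalized and tested with edgeR 4.0.16 (quasi-likelihood F test, R 4.3.3) in 1 model of 4 groups, with Benjamini-Hochberg adjustment over 14364 genes and a threshold of 0.05. Intervals are 95%. DESeq2 1.42.0 and limma 3.58.1 on log2 (TPM + 1) and log2 (TPM + 0.1) were alternatives, as were RLE normalization, no filter, the A36 to A39 mice, an erythroid marker score as a covariate, omission of WT T1D mice 4 and 5, and omission of each mouse. A fit with the identifier series as a term was added after seeing the data. A marker score was the mean of log2 (CPM + 0.5). The procedure was tested on simulated counts with known changes, drawn separately for each gene. These held no mice that stood apart, no shift in cell composition, and no identifier series, so they do not bear on those features. Within groups, no library was a copy of another, as chi-square per gene was 10.9 to 187 over 55 pairs.

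Sequences and positions came from RefSeq tables of the same build. Figures were drawn with matplotlib 3.10.9 in Python 3.11.15. The genes named are the 10 members, the 3 genes most like each in Spearman correlation, in each of 5 neighbouring lists the genes past the threshold and otherwise those with the largest change in WT, up to 3, and Sarm1. A result that the rule would name is not reported here. Members and lists were chosen with earlier results of these data known. Mia2 was matched by its RefSeq transcripts, the erythroid marker Ahsp was not analysed here, and the chondrocyte marker Matn1 was below the count filter. Replicate numbers are only names, as the labels give mouse identifiers and not pairs.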

Additional observations from a re-analysis of the deposited data

Results flagged for a closer look

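A single mouse stood apart from its group, by the gap to its nearest neighbour against the whole range, in 3 of the 40 groups of levels checked (10 genes in 4 groups), and chance alone gives about 1 in 20. Sec23a was at 41.9 CPM in WT Control mouse 1, below the next mouse at 57.5 CPM. Sar1b was at 50.1 CPM in WT Control mouse 3, above the next at 36.6 CPM, and at 48.4 CPM in KO Control mouse 1, above the next at 34.8 CPM. WT T1D mice 4 and 5 do not appear here because they lie close to each other.

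For Sec31a, each of the 6 diabetic WT mice lay under the mean of WT Control, and each of the 6 diabetic KO mice lay over the mean of KO Control. The difference between these changes was 0.56 on the log2 scale (SE 0.22), and its adjusted p in edgeR was 0.479. Over the 9 alternative fits it ran from 0.15 to 0.87, with adjusted p values from 0.0902 to 0.999, and without WT T1D mice 4 and 5 it was 0.32. The share of all genes with the same arrangement of mice around the control means was not counted.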

How the results depend on the processing

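No coat gene was called with T1D in WT under DESeq2, RLE normalization, no filter, the erythroid covariate, the identifier series as a term, or without WT T1D mice 4 and 5, whereas 9 were called in either limma fit and 3 in the A36 to A39 mice. In those limma fits, 36% and 34.9% of all genes were called and the median of all genes shifted by -0.24 and -0.29, and the coat genes' median lay -0.23 and -0.25 from it. Between diabetic KO and WT mice, 1 coat gene was called with DESeq2 (where 1.66% of all genes were), 3 on log2 (TPM + 1) (5.18%), 1 on log2 (TPM + 0.1) (0.585%), 4 in the A36 to A39 mice (10.8%), and 1 with the identifier series as a term (4.62%), a fit added after seeing the data. With T1D in WT, 334 of all genes were called in edgeR, 1002 with DESeq2, 88 with no filter, 2211 in the A36 to A39 mice, and 0 with the erythroid covariate or without mice 4 and 5. The cause was not tested. With single mice omitted, 0 to 1 coat genes were called between diabetic KO and WT mice and 0 in every other comparison. The counts for T1D in KO, the interaction, and nondiabetic KO against WT stayed at 0 under all 9 alternatives.

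Directions changed as follows, where the erythroid score overlapped little between WT T1D and WT Control. With the erythroid covariate, values in WT were 0.12 for Sec23a, 0.056 for Sec24a, 0.15 for Sec24d, 0.030 for Sar1a, 0.058 for Sec31a, 0.052 for Ykt6, 0.057 for Lman1, 0.086 for Surf4, 0.24 for Copz2, 0.085 for Arf4, and 0.22 for Creb3l1, Sar1a was 0.025 in KO and -0.0055 for the interaction, and Sec24c was 0.032 between diabetic KO and WT mice. On log2 (TPM + 1) and log2 (TPM + 0.1), Sar1b was -0.16 and -0.17 in WT and 0.069 and 0.070 for the interaction, Sec24c was 0.18 and 0.19 between diabetic genotypes, and on log2 (TPM + 1) Sec24a was -0.0017 in KO. In the A36 to A39 mice, Sec23b was 0.040 in WT and Sec24c -0.0024 for the interaction. Without mice 4 and 5, Sec24c was 0.0065 between diabetic genotypes, and with the identifier series as a term it was 0.0067 there and Sec23b was 0.0043 in WT. Leaving out single mice moved across 0 only values near it. These were Sec23b in WT (-0.021 to 0.016), Sec24a (-0.038 to 0.098), Sec24c (-0.079 to 0.029), Sar1a (-0.072 to 0.021), and Sar1b (-0.13 to 0.061) in KO, Sec24c for the interaction (-0.027 to 0.086), and Sec24c between diabetic genotypes (-0.079 to 0.025).

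At these depths, each coat gene had at least 176 counts in every mouse, and the spread between mice sets the precision. No paired analysis was possible because the groups share no replicate numbers in the labels.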
